A study of Gallus gallus with 12 samples.

Results

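The HOX genes and their TALE partners MEIS and PBX were examined in the dorsal mesentery of the chicken embryo, the membrane by which the early gut hangs from the back of the body cavity. The set was taken from the gene symbols of the array annotation: every chicken probe set whose only symbol was a HOX gene of cluster A, B, C or D, a MEIS gene or a PBX gene, with 1 probe set per gene, the one with the highest mean signal over the 12 arrays. It comprised 33 genes of 13008 genes with a single symbol, namely 29 HOX genes (10 of cluster A, 9 of B, 4 of C and 6 of D), MEIS1, MEIS2, PBX3 and PBX4. They were read by 66 of 37693 chicken probe sets. HOXC10, HOXC12, HOXD1, HOXD3 and HOXD9, which the chicken RefSeq table (assembly GRCg7b) also lists, were not analysed here.

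The arrays came from unmanipulated Leghorn embryos at Hamburger-Hamilton stage 21, about day 3.5 of incubation. Left and right of the midline the mesentery has a mesenchyme and an outer epithelium, and these 4 compartments were cut from frozen sections by laser in 3 biological experiments, and the material of an experiment was pooled to give 1 array per compartment, hence n = 3 for each. The RNA was amplified before labelling. A value is therefore an average over many cells and embryos, and for all differences below, fewer cells of a type and less RNA per cell cannot be told apart.

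HOX genes encode homeodomain transcription factors that lie in clusters, and their order along a cluster matches the order in which they are switched on along the head-to-tail axis. Genes at the same place in different clusters form a paralogue group: low-numbered groups are expressed from the hindbrain or neck backward, and high-numbered groups in the lumbar, sacral and tail regions. MEIS and PBX proteins are homeodomain proteins with an extended loop that bind DNA together with HOX proteins. In the gut and its mesoderm, HOX genes are known for their nested domains along the length of the tract.

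Array signals were scaled by the authors to a common level. Each array's background floor was set at the 95th percentile of 59 controls that match no chicken gene; it was 19.3 to 39.6 signal units and highest on right epithelium 3. The standard deviation of all tested probe sets around their compartment means was largest on right epithelium 3 (0.382 on the log2 scale) and right mesenchyme 3 (0.360), against 0.297 to 0.336 on the other arrays. Summed over 5 coelomic epithelium markers, 3 of them above the floor on every array, the signal was 6235 to 6261 in left epithelium and 3105 to 3437 in left mesenchyme, and 9276 to 9816 in right epithelium against 4916 to 5413 in right mesenchyme. Of the 3 tested, PODXL was called higher in epithelium (1.67 ± 0.08), while TCF21 (-0.77 ± 0.23) and TBX18 (-0.44 ± 0.15) lay the other way without being called. The 8 mesenchyme markers, 6 above the floor throughout, had sums of 17938 to 21417 in left epithelium, 20483 to 24257 in left mesenchyme, 24713 to 27191 in right mesenchyme and 23838 to 24427 in right epithelium, which overlapped between the layers on the left and not on the right. Of the 7 tested, DCN (-0.69 ± 0.09) and PDGFRA (-0.45 ± 0.08) were called lower in epithelium and 0 higher. For FOXF1, a defining gene of gut mesenchyme, the probe set used was above the floor on 0 arrays. Since a probe set can fail, this does not show that FOXF1 RNA was missing. Of 5 markers of the neural tube, which expresses HOX genes strongly, 0 were above the floor on all 12 arrays; NKX6-1, the one tested, was above it on 9 and was called higher in left than in right mesenchyme (1.74 ± 0.41). Of 4 neural crest markers 3 were above the floor throughout, and EDNRB was called lower in left than in right epithelium (-1.39 ± 0.19). Between left and right of either layer, limma called 0 of the 3 endoderm and 0 of the 2 somite markers tested. Of 7 endoderm markers measured, 2, EPCAM and CDH1, were above the floor on all 12 arrays. EPCAM was called higher on the left over both layers (0.28 ± 0.07) and higher in epithelium than in mesenchyme (0.37 ± 0.07). Of the 2 nephric markers tested, EMX2 was called higher in epithelium (1.41 ± 0.22).

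The signal divided by paralogue group. All 21 genes of groups 1 to 10 were above the floor on all 12 arrays, and 0 of the 8 genes of groups 11 to 13 were, while 69.6% of all genes were when one probe set was chosen in the same way. MEIS1, MEIS2, PBX3 and PBX4 were above it on all 12 arrays. Of groups 11 to 13, HOXA13 was above the floor on no array, as were 3.21% of all genes. HOXC13 passed it on 8 arrays, HOXD11 on 6, HOXA11 on 5, HOXD12 on 4, HOXB13 on 3, and HOXC11 and HOXD13 on 1 each. By compartment, HOXC13 passed it on 3 arrays each of left epithelium and right mesenchyme, and on 1 array of each other compartment. In right epithelium HOXC13 read 40.5, 23.5 and 38.4 against floors of 25.7, 25.1 and 39.6, so its count there turned on values near the floor. HOXD11 passed the floor on 3 arrays of left mesenchyme and on 1 of each other compartment. Counts by compartment were not made over all genes. The count of 0 also held on the 10 arrays other than right mesenchyme 3 and right epithelium 3. The count of 21 could not fall when arrays were left out.

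**Figure D1:**
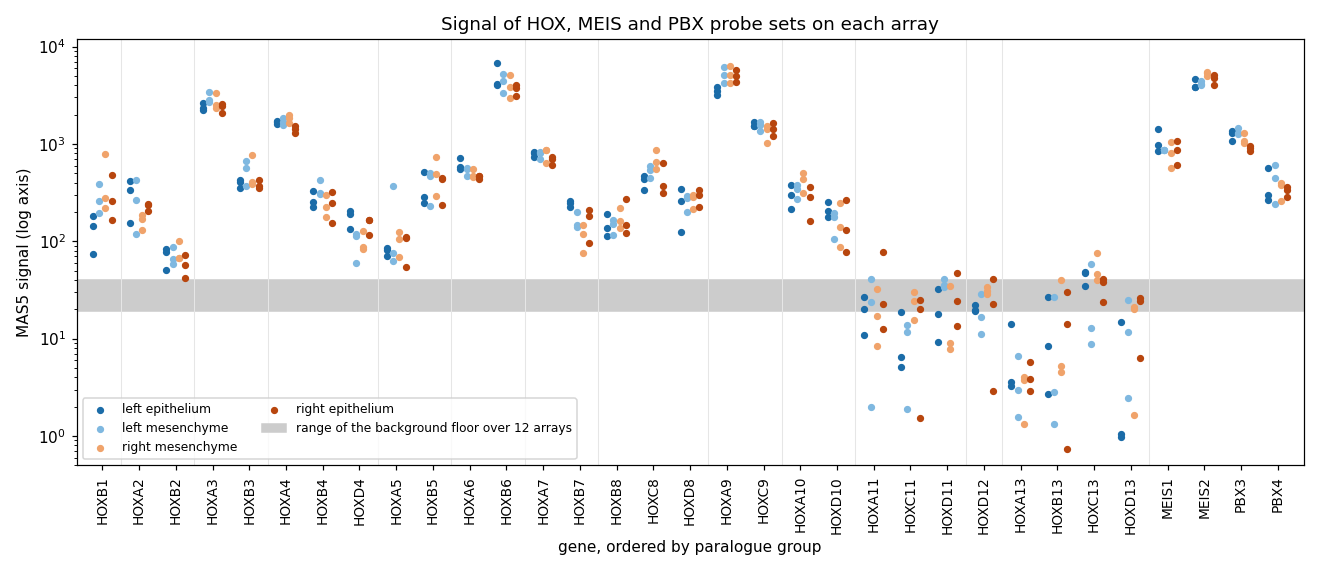
MAS5 signal (log axis) of each of the 33 genes, with 1 point per array, colours for the 4 compartments and the grey band for the floor of 19.3 to 39.6 over the 12 arrays. Genes of groups 1 to 10 and the MEIS and PBX genes sit above the floor of their array throughout, and genes of groups 11 to 13 scatter around or below it; heights of different genes are not comparable, since they come from different probes.

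The measured genes on either side of this boundary are given here for each cluster. HOXA10, a gene of lumbar patterning, ranged from 160.8 to 499.9 with a median of 329.9 over the 12 arrays. HOXA11, the next gene in the cluster and known for its role in the forearm and kidney in the mouse, ranged from 1.96 to 77.6 with a median of 21.4. HOXA10 was 6.27 to 20.1 times the floor of its array, and HOXA11 was 0.073 to 3.09 times.

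In cluster D, HOXD10 ranged from 77.9 to 267.8 (1.97 to 10.6 times the floor), and HOXD11, its neighbour, from 7.89 to 46.9 (0.271 to 1.87 times). Cluster C gave 1013 to 1682 for HOXC9, a gene of the trunk, and 1.53 to 30.0 for HOXC11, with HOXC10 between them not analysed here. In cluster B, where the annotation lists no gene between the pair, HOXB8 ranged from 112.6 to 272.9 and HOXB13, a gene of the tail end of the body, from 0.731 to 39.7. Each gene is read here against the floor of its own array, since the signals of different probe sets are not comparable with each other.

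HOXD12 reached at most 41.1, HOXD13 26.1 and HOXA13 14.1; in the mouse the last 2 pattern the digits and the hind end of the gut. HOXC13, known for hair and nail formation in mammals, was the gene of groups 11 to 13 above the floor most often, with 8.90 to 75.5 and a median of 40.1, 1.58 times the floor. Across all probe sets of these 8 genes, 0 of 16 were above the floor on all 12 arrays and 3 were on none. Groups 1 to 10 had 31 of 43 probe sets above it throughout, and MEIS and PBX 7 of 7.

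A signal at the floor does not show that the RNA was missing, because a probe set can fail. HOXD8, for which the chosen probe set ranged from 124.4 to 340.8, had a further probe set above the floor on only 2 arrays. The probe sets of HOXA9 differed as well, with mean signals of 4741 and 41.0, and those of HOXB6 had mean signals of 4222, 101.0 and 31.4. The strand that each probe set reads was not given in the sources used here. For HOXB6, HOXB1 and the other genes, RNA of the opposite strand therefore could not be told apart. HOXA11, HOXC11 and HOXC13 were read by several probe sets, and each other gene of groups 11 to 13 by a single one.

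Groups 1 to 3 comprised 5 genes, known in the mouse chiefly for segment identity in the hindbrain and the pharyngeal arches. HOXA2 ranged from 119.0 to 422.2, HOXB2 from 42.2 to 101.0, HOXA3 from 2102 to 3395, HOXB3 from 355.9 to 775.6 and HOXB1 from 73.5 to 792.4. HOXB2 was the gene of groups 1 to 10 that came closest to the floor, at 1.44 times it on its lowest array. Relative to its own level HOXB1 had the widest spread of compartment means of the genes tested.

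Groups 4 and 5, genes of the neck and upper trunk, also comprised 5 genes. HOXA4 ranged from 1308 to 1974, HOXB4 from 154.5 to 421.7 and HOXD4 from 59.6 to 204.2. HOXB5, required for enteric neural crest in the mouse, ranged from 231.1 to 726.6. HOXA5, required for lung and stomach formation in the mouse, was 55.0 to 123.1 on 11 arrays and 371.3 on left mesenchyme 3, a single array that sets the wide interval of this gene below.

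Groups 6 to 8, thoracic genes, comprised 7 genes. HOXA6 ranged from 435.8 to 721.9, HOXB6 from 2975 to 6747, HOXA7 from 609.1 to 869.7 and HOXB7 from 75.8 to 261.2. HOXC8, a determinant of thoracic identity in the mouse, ranged from 313.4 to 860.2. With HOXB8 and HOXD8, all 7 were above the floor in all compartments. HOXA9, a gene of the lower trunk, ranged from 3207 to 6376.

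The next question was whether these genes differed between the sides or between the layers. Signals were tested as log2(signal + 16) with limma on all 23063 probe sets above an intensity filter, which passed 25 of the 33 genes; the 8 that did not pass are all of groups 11 to 13. In the limma test, 0 of 25 genes passed an adjusted p of 0.05 between left and right mesenchyme (1.99% of all probe sets tested did), 0 of 25 between left and right epithelium (2.47%), 0 of 25 between epithelium and mesenchyme (4.79%) and 0 of 25 between left and right over both layers (5.28%). The left-right difference itself differed between the layers for 0 of 25 (0.026%). An F test for any difference among the 4 compartments called 1 of 25, HOXB1, against 7.34% of all probe sets.

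At an unadjusted p under 0.05, limma gave 1 gene between the mesenchymes (MEIS2; 12.3% of all probe sets), 4 between the epithelia (HOXA9, HOXB1, HOXB6 and PBX3; 12.8%) and 6 between the layers (HOXA3, HOXA9, HOXB1, HOXB3, HOXC8 and HOXD4; 16.7%). For left against right over both layers it gave 6 (HOXA9, HOXB1, HOXB6, HOXB7, MEIS2 and PBX3; 16.8%), for the difference of the left-right differences 1 (HOXA9; 5.84%) and for the F test 5 (HOXA9, HOXB1, HOXC8, MEIS2 and PBX3; 18.9%). Left and right arrays did not overlap for 2 genes in the mesenchyme, HOXB4 and MEIS2 (17.7% of all probe sets), and for 6 in the epithelium, HOXA4, HOXA6, HOXA9, HOXB6, HOXB7 and PBX3 (15.7%). The layers did not overlap for 0 genes (1.98%), nor did the sides over both layers (2.26%).

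**Figure D2:**
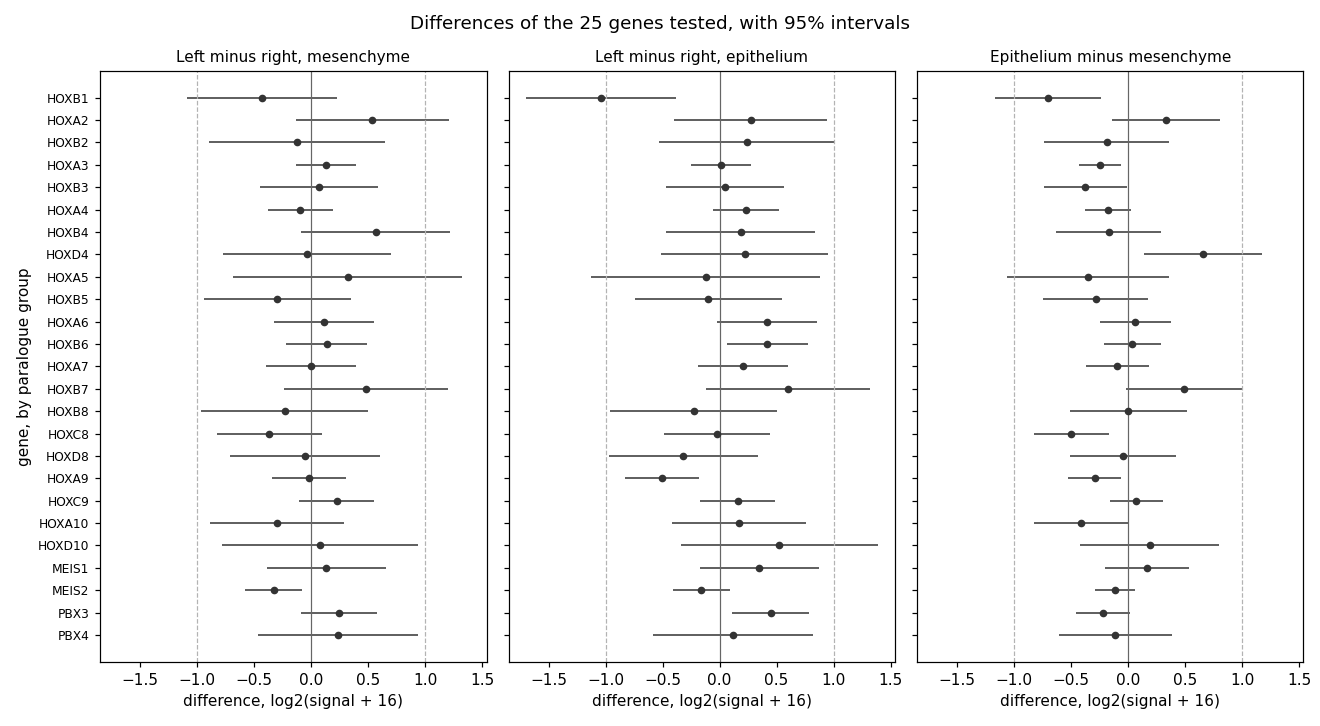
Differences of the 25 genes tested on the log2(signal + 16) scale, left minus right in the mesenchyme, left minus right in the epithelium, and epithelium minus mesenchyme, as points with 95% intervals; dashed lines mark 1 log2 unit. Most intervals lie inside the dashed lines, and HOXB1 in the epithelium, at -1.04, is the difference farthest from 0.

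A test that misses the threshold does not show equality, so the intervals set the bounds. The 95% interval lay within 1 log2 unit of 0, a change of less than 2-fold, for 20 of 25 genes between the mesenchymes (64.7% of all probe sets), 20 between the epithelia (63.7%) and 22 between the layers (85.7%), and for 23 between the sides over both layers (85.5%). For 17 genes the intervals of the first 3 comparisons all did (51.9%). These were HOXA3, HOXA4, HOXA6, HOXA7, HOXA9, HOXA10, HOXB3, HOXB5, HOXB6, HOXB8, HOXC8, HOXC9, HOXD8, MEIS1, MEIS2, PBX3 and PBX4. The percentages cover all probe sets tested, whereas each gene was read by its brightest one, so they are not matched in brightness. For MEIS2 the SE between the mesenchymes was 0.12 with the chosen probe set and 0.40 with the dimmer one. For the difference of the left-right differences, the interval lay within 1 log2 unit of 0 for 12 genes (41.2%), and the median SE was 0.39. For the other genes tested, a 2-fold dependence of the side on the layer, in at least 1 direction, lay within the interval. Smaller dependences were not bounded by this count.

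Compartment means of a gene spanned 0.20 log2 units for HOXA7, 0.43 at the median of the 25 genes and 1.44 for HOXB1. The highest mean fell in left epithelium for 9 genes, left mesenchyme for 6, right mesenchyme for 8 and right epithelium for 2. The lowest fell in left epithelium for 7, left mesenchyme for 2, right mesenchyme for 5 and right epithelium for 11. The same counts were not made over all probe sets, so whether they are particular to these genes was not tested. The median difference over the 25 genes was 0.07 between the mesenchymes, 0.17 between the epithelia and -0.11 between the layers, against 0.00, 0.01 and -0.01 over all probe sets. The typical size of a difference, its median without sign, was 0.22 between the mesenchymes and 0.23 between the epithelia, and 0.21 and 0.22 over all probe sets.

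By paralogue group, the differences between the epithelia ran from -1.04 to 0.27 in groups 1 to 3, from -0.12 to 0.23 in groups 4 and 5, from -0.32 to 0.60 in groups 6 to 8 and from -0.50 to 0.52 in groups 9 and 10. Between the mesenchymes they ran from -0.43 to 0.54, from -0.30 to 0.57, from -0.37 to 0.48 and from -0.30 to 0.22. Each group thus held genes on both sides of 0 in both layers. None of these ranges was tested.

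HOXB1, which in the mouse gives a segment of the hindbrain its identity, was the one gene called among the compartments. Its signal was 143.0, 73.5 and 182.8 in experiments 1, 2 and 3 of left epithelium, and 163.7, 261.6 and 474.9 in right epithelium. In left mesenchyme it was 257.1, 194.5 and 384.3, and in right mesenchyme 278.7, 219.9 and 792.4. Left epithelium had the lowest array of each experiment, right mesenchyme 3 and right epithelium 3 were the brightest, and the arrays of the sides overlapped in both layers.

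The F test of limma gave HOXB1 an adjusted p of 0.031. The left-minus-right difference in the epithelium was -1.04 ± 0.31 (SE, n = 3 experiments, 95% interval -1.70 to -0.38). It missed the threshold with an adjusted p of 0.11 in limma. In experiments 1, 2 and 3 it was -0.18, -1.63 and -1.30, lower on the left in 3 of 3. In the mesenchyme it was -0.43 ± 0.31 (adjusted p 0.66 in limma), and over both layers -0.73 ± 0.22 (adjusted p 0.067 in limma). Epithelium minus mesenchyme was -0.70 ± 0.22 (adjusted p 0.085 in limma). The left-minus-right difference of the epithelium less that of the mesenchyme was -0.61 ± 0.44, with an interval from -1.54 to 0.32.

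The call of HOXB1 rested on single arrays and settings. The adjusted p of its F test in limma was 0.17 without left epithelium 2, 0.17 without left epithelium 3, 0.051 without left mesenchyme 1 or left mesenchyme 2, 0.062 without right mesenchyme 1 and 0.086 without right mesenchyme 3, and it stayed under 0.05 without any one of the other 6 arrays. With both right mesenchyme 3 and right epithelium 3 left out it was 0.14. It was 0.19 without the experiment as a block, 0.056 without the intensity filter, 0.082 without the intensity trend and 0.41 with the mean of all HOXB1 probe sets. Without experiment 1, 2 or 3 it was 0.056, 0.21 and 0.29. The difference over both layers passed the threshold in 3 of 25 alternatives. Among them were those without left epithelium 1 (-0.87, adjusted p 0.035 in limma) and without right epithelium 1 (-0.88, adjusted p 0.029 in limma). The difference between the layers passed it in 1 of 25, without left epithelium 1 (-0.84, adjusted p 0.049 in limma).

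Since the platform reads HOXB1 with 5 probe sets, the others were examined after the values of the first had been seen. The second probe set read 37.8, 30.0 and 39.2 in left epithelium and 129.8, 75.5 and 296.4 in right epithelium, without overlap. The left epithelium values were close to the floors of their arrays, 21.6, 19.3 and 25.1. It read 97.3, 86.9 and 134.1 in left mesenchyme and 114.1, 126.3 and 293.7 in right mesenchyme. Its left-minus-right difference in the epithelium was -1.64 ± 0.36 (adjusted p 0.020 in limma) and over both layers -1.11 ± 0.26 (adjusted p 0.015 in limma).

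These calls were lost without single arrays or experiments too. In the epithelium the adjusted p in limma was 0.14 without left epithelium 3, 0.075 without right epithelium 1 and 0.13 without right epithelium 3. Over both layers it was 0.053 without left epithelium 3, 0.054 without left mesenchyme 3, 0.0502 without right mesenchyme 3 and 0.054 without right epithelium 3. With both right mesenchyme 3 and right epithelium 3 left out, the difference was -1.27 in the epithelium (adjusted p 0.16 in limma) and -0.78 over both layers (adjusted p 0.22 in limma). Leaving out experiment 1, 2 or 3 gave an adjusted p in limma of 0.13, 0.067 and 0.24 in the epithelium, and of 0.071, 0.055 and 0.24 over both layers. Without the intensity filter it was 0.053 in the epithelium.

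The third probe set read 81.6, 73.7 and 122.9 in left epithelium, 79.5, 77.4 and 132.7 in left mesenchyme, 164.4, 195.1 and 140.7 in right mesenchyme, and 125.2, 140.1 and 266.6 in right epithelium. The sides did not overlap in either layer, and its difference over both layers was -0.75 ± 0.24 (adjusted p 0.080 in limma). The remaining HOXB1 probe sets were above the floor on 6 and 2 arrays and were not tested. All 3 probe sets tested were thus lower on the left in both layers, while the difference between the layers was -0.70, -0.69 and -0.01.

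**Figure D3:**
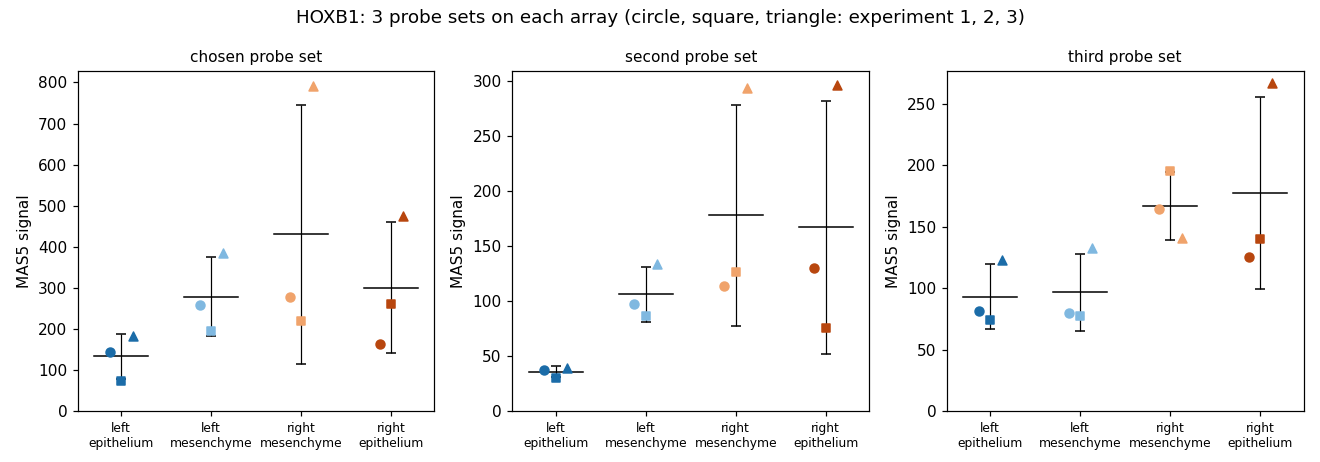
Signal of the 3 HOXB1 probe sets that were tested, on a linear axis from 0, with 1 point per array (circle, square and triangle for experiments 1, 2 and 3) and the mean ± SD of n = 3 for each compartment. Left epithelium has the lowest mean in each panel, and right mesenchyme 3 (792.4) and right epithelium 3 (474.9) stand highest in the first.

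Markers of several cell types were called between the epithelia. TBX18 (-2.04 ± 0.21), TCF21 (-1.47 ± 0.33), EDNRB (-1.39 ± 0.19) and COL1A1 (-0.56 ± 0.11) were lower on the left. DCN was higher there (0.51 ± 0.13). Blood markers were lower on the left too, while between the layers limma called 0 of them (median -0.12). The summed signal of the 5 blood markers measured, all above the floor on all 12 arrays, was 63504, 23863 and 19266 in left epithelium and 71762, 71704 and 68066 in right epithelium, and all 5 were called lower on the left, with a median of -1.16. In left mesenchyme the sum was 44865 to 58569 and in right mesenchyme 52249 to 60141. Endothelial markers, 8 of 9 above the floor throughout, summed to 8239 to 9391 in left mesenchyme, 3194 to 3706 in right mesenchyme and 1149 to 2305 in both epithelia. The part of blood, endothelium or any other cell type in the differences of HOXB1 or of any other gene named here was not tested.

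The other 4 genes with an unadjusted F p under 0.05, chosen for description after their values were seen, were MEIS2, PBX3, HOXA9 and HOXC8, and none was called. Choosing genes in this way favours the same sign in all 3 experiments, a count that was not made over all probe sets. MEIS2, a HOX cofactor, read 4427, 4126 and 4032 in left mesenchyme and 5299, 5030 and 5496 in right mesenchyme, without overlap. In left epithelium it read 4630, 3858 and 3884, and in right epithelium 3989, 4795 and 5085, which overlap. The difference between the mesenchymes was -0.33 ± 0.12 (95% interval -0.58 to -0.08, lower on the left in 3 of 3 experiments, adjusted p 0.22 in limma), and that between the epithelia -0.16 ± 0.12. Over both layers it was -0.25 ± 0.08 (adjusted p 0.11 in limma). It passed the threshold in 2 of 25 alternatives, among them without right epithelium 1, with an adjusted p of 0.021 in limma. MEIS1, its paralogue, differed by 0.13 ± 0.25 between the mesenchymes and 0.35 ± 0.25 between the epithelia. A further probe set of MEIS2 gave -0.77 ± 0.40 between the mesenchymes and 0.20 ± 0.40, the other way, between the epithelia.

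PBX3, which encodes a partner of both HOX and MEIS proteins, lay the other way. It read 1287, 1060 and 1366 in left epithelium and 948.9, 902.2 and 845.3 in right epithelium, without overlap. The left and right mesenchyme overlapped, at 1303, 1250 and 1455 against 1283, 1020 and 1083. The difference between the epithelia was 0.45 ± 0.16 (95% interval 0.11 to 0.78, higher on the left in 3 of 3 experiments, adjusted p 0.20 in limma), and over both layers 0.35 ± 0.11 (adjusted p 0.093 in limma). PBX4 differed by 0.12 ± 0.33 between the epithelia and 0.23 ± 0.33 between the mesenchymes.

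HOXA9 read 3207, 3525 and 3846 in left epithelium, below all 9 other arrays. Right epithelium read 5797, 4324 and 4954, left mesenchyme 5066.4, 6223.2 and 4228.9, and right mesenchyme 5085, 6376 and 4254. The difference between the epithelia was -0.50 ± 0.15 (95% interval -0.83 to -0.18, lower on the left in 3 of 3 experiments, adjusted p 0.11 in limma). That between the mesenchymes was -0.02 ± 0.15, which was also below 0 in 3 of 3 experiments. Without right epithelium 2 the difference between the epithelia passed the threshold, with an adjusted p of 0.026 in limma.

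HOXC8 read 339.8, 439.2 and 469.5 in left epithelium and 313.4, 365.8 and 642.5 in right epithelium. It read 442.9, 594.3 and 539.0 in left mesenchyme and 550.7, 653.8 and 860.2 in right mesenchyme. Within each experiment the mean of the epithelia was below that of the mesenchymes, although the arrays of the layers overlapped. The difference between the layers was -0.50 ± 0.16 (95% interval -0.83 to -0.17, adjusted p 0.083 in limma). It passed the threshold in 2 of 25 alternatives, among them without right epithelium 3, with an adjusted p of 0.037 in limma.

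**Figure D4:**
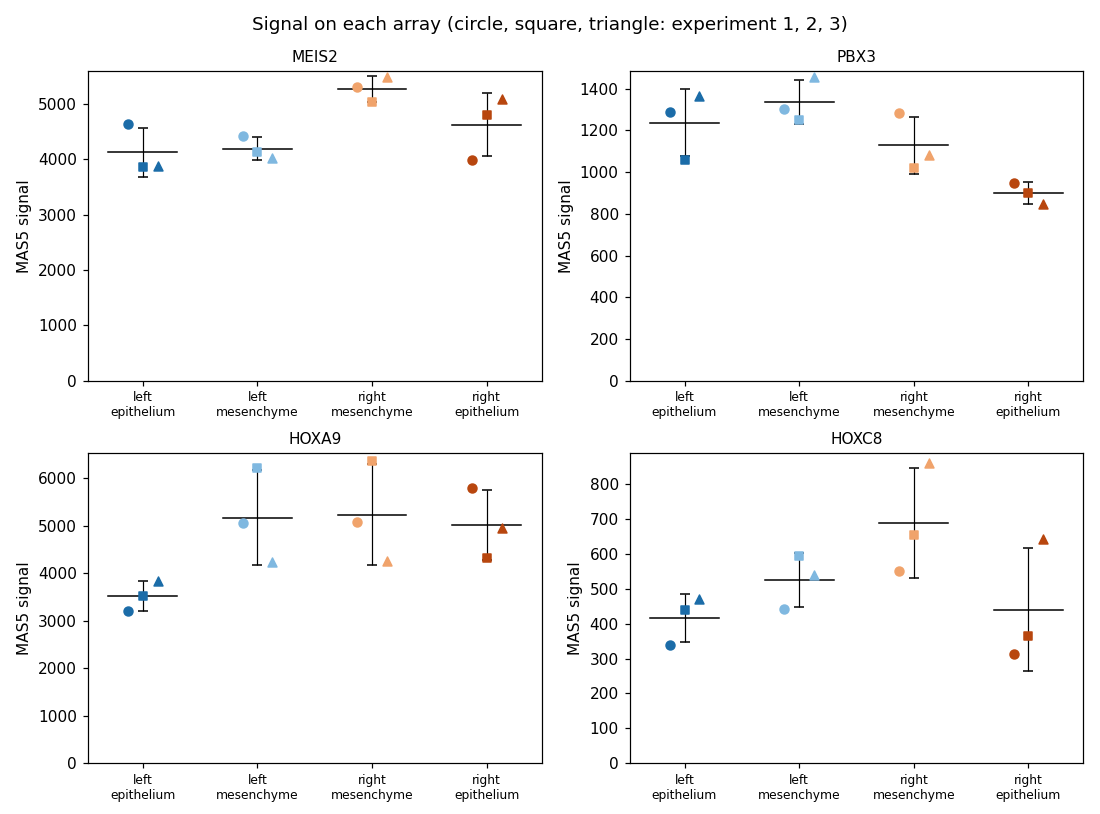
Signal of MEIS2, PBX3, HOXA9 and HOXC8 on each array, on linear axes from 0 (circle, square and triangle for experiments 1, 2 and 3), with the mean ± SD of n = 3 per compartment. MEIS2 is higher on the 3 right mesenchyme arrays than on the 3 left ones, PBX3 is lower on the 3 right epithelium arrays than on the 3 left ones, HOXA9 is lowest on the 3 left epithelium arrays, and HOXC8 overlaps between the layers; none of these differences was called.

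The remaining differences with an unadjusted p under 0.05 did not pass the adjusted test in limma either. HOXD4 was 0.66 ± 0.25 higher in epithelium than in mesenchyme (adjusted p 0.16), HOXB3 was at -0.37 ± 0.17 (0.28) and HOXA3 at -0.25 ± 0.09 (0.14). HOXB6 was at 0.42 ± 0.17 between the epithelia (adjusted p 0.28) and at 0.28 ± 0.12 between the sides over both layers (0.24), where HOXB7 was at 0.54 ± 0.24 (0.26). HOXA9 was at -0.29 ± 0.11 between the layers (adjusted p 0.16), at -0.26 ± 0.11 between the sides over both layers (0.22) and at -0.49 ± 0.22 for the difference of the left-right differences (0.83). A further probe set of HOXB6 gave -0.28 ± 0.45 for the comparison of the epithelia. Between the layers, a further probe set of HOXB3 gave 0.26 ± 0.23, the other way, and one of HOXA3 gave -0.28 ± 0.15.

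Agreement between probe sets of a gene was limited. Of the 12 genes with more than 1 probe set tested, all probe sets had the same sign in 10 between the mesenchymes, 8 between the epithelia and 5 between the layers. The same counts were not made over all genes, so whether such agreement is particular to these genes was not tested. Among the 41 probe sets of all 25 genes that were tested, the F test called 2, both of HOXB1 (7.34% of all probe sets). The spans of 11 genes (HOXA3, HOXA4, HOXA5, HOXA6, HOXA9, HOXA10, HOXB3, HOXB4, HOXB5, HOXB6 and HOXD4) overlap another HOX gene or the antisense RNA HOXA10-AS in the RefSeq table, so that a signal there may be shared. The chosen probe sets of HOXA10, PBX3 and PBX4 are of the type that can match several transcripts.

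Other homeobox genes of the same families were also at hand. Of 11 further TALE genes listed, 9 had a probe set and 4 were above the floor on all 12 arrays: PKNOX1 and PKNOX2, relatives of MEIS, and the repressors TGIF1 and TGIF2. limma tested these 4 and called 0 of them in any comparison. IRX1, IRX2, IRX4, IRX5 and MKX were above the floor on 1 to 9 arrays. Of the CDX genes, activators of trunk HOX genes, CDX1 was above the floor on 9 arrays, CDX2 on 10 and CDX4 on 0, and CDX2, the one tested, was not called.

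A list of 20 genes covered signals that act on HOX expression in the embryo, chiefly retinoic acid, Wnt and FGF. Of the 12 tested, limma's F test called 7 (7.34% of all probe sets). Between the epithelia 1 was called higher and 3 lower on the left (2.47% of all probe sets in either direction), between the mesenchymes 2 higher and 1 lower (1.99%), and between the layers 3 higher and 2 lower in the epithelium (4.79%). The left-right difference was called to differ between the layers for 1, RDH10 (0.026%). FGFR1, the one gene of the FGF pathway tested, was not called (adjusted p 0.88 in limma's F test). The list's medians were -0.01, 0.13 and 0.37.

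Most of the genes called make, degrade or bind retinoic acid or its precursor, but so do most of the genes tested in this list. ALDH1A2, which makes retinoic acid, read 8889, 9713 and 7912 in left epithelium and 13975, 13457 and 15382 in right epithelium, a difference of -0.69 ± 0.10 (adjusted p 4.8e-04 in limma). CYP26A1, which degrades it, read 1993, 1802 and 1570 on the left and 938.8, 775.8 and 671.3 on the right, a difference of 1.16 ± 0.17 (adjusted p 7.8e-04 in limma). Neither gene's left and right arrays overlapped in the epithelium, and both kept this side in the mesenchyme, at -0.75 ± 0.10 and 1.46 ± 0.17. ALDH1A3, another retinoic acid enzyme, was at -0.72 ± 0.18 between the epithelia (adjusted p 0.043 in limma). ACVR2B, a receptor for GDF11, was at -0.80 ± 0.16 there (adjusted p 0.010 in limma). ALDH1A1 (0.52 ± 0.33) and CYP26B1 (-0.30 ± 0.39), not called, lay opposite to ALDH1A2 and CYP26A1 between the epithelia. CYP26C1 (1.28 ± 0.47), also not called, lay the same way as CYP26A1.

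Between the layers, ALDH1A2 (0.48 ± 0.07), RDH10, which makes the precursor retinal (0.74 ± 0.08), and WNT5A (0.53 ± 0.15) were called higher in the epithelium. ALDH1A3 (-1.07 ± 0.13) and RARB, a retinoic acid receptor and target (-0.56 ± 0.12), were called lower. RDH10 read 3179 ± 189 in right mesenchyme and 8264 ± 1736 in right epithelium, against 7748 ± 605 and 8418 ± 841 on the left (mean ± SD, n = 3), so right mesenchyme stood apart. Its difference between the mesenchymes was 1.28 ± 0.12 (adjusted p 4.9e-06 in limma) and between the epithelia 0.04 ± 0.12, and the second less the first was -1.24 ± 0.17 (adjusted p 0.012 in limma). In the same fit 0 of the 25 HOX, MEIS and PBX genes were called in any of these comparisons by their chosen probe sets. The second probe set of HOXB1 was called between the epithelia (adjusted p 0.020 in limma). Whether calls were less frequent among the HOX, MEIS and PBX genes than among the signal genes was not tested. The signal list was chosen with earlier results of these data known, so the 2 shares cannot be compared.

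Chromatin regulators of the Polycomb and Trithorax groups, which keep HOX genes silent or active, were tested as 18 genes, of which the F test called 1 (7.34% of all probe sets). PHC1, a Polycomb subunit, was the one called between the epithelia (2.47%), lower on the left, at -0.61 ± 0.15 (adjusted p 0.043 in limma). EZH2, the Polycomb methyltransferase, was the one called over both layers (5.28%), higher on the left, at 0.38 ± 0.10 (adjusted p 0.040 in limma). Between the mesenchymes and between the layers limma called 0 of 18.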

How the data were processed

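The authors deposited 1 table of linear 1-colour Affymetrix intensity values, made with MAS5 in GCOS per the submitters' processing notes; versions and the genome build are not given in the sources used here. From the values, the authors scaled each array: the trimmed mean (2% left off at each end) was 499.95 on all 12. Depth has no counterpart on arrays; the number of arrays limits the precision. From 38535 rows, 96 controls were left out. Symbols came from the platform annotation, and the Entrez identifiers of all 33 genes stood in RefSeq, where 0 symbols differed.

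The scaling was kept and log2(signal + 16) taken, which understates changes of dim genes. Of 38439 probe sets, the 23063 whose mean exceeded the 40th percentile, equal to 47.4 signal units, were fitted with limma 3.58.1 in R 4.3.3: compartment plus experiment as a block, all 12 arrays, a variance trend on intensity (degrees of freedom 6 residual, 10.6 prior), two-sided tests, and Benjamini-Hochberg adjustment over 23063 probe sets at 0.05. A difference is left minus right or epithelium minus mesenchyme. A plain exact test of 3 against 3 arrays cannot give a p below 0.1. The fit was also run on simulated data with changes added in left mesenchyme only. Those data held no effect of the experiment, so they could not test the block.

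According to the series text every experiment supplied the 4 compartments, so the replicate number stands for the experiment. For 18 same-numbered pairs of arrays, deviations from compartment means correlated by -0.063 to 0.105 (mean 0.021), and over 36 pairs with different numbers and compartments by -0.010 on average.

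Of the 33 genes, values on each array are given for those called in a test or with a left-right or layer difference of at least 1 log2 unit, which was HOXB1, and for those said to have been chosen after their values were seen. The genes and lists were chosen with earlier results of these data known. Alternatives were the offset, the filter, the block, quantile normalization, the trend, array weights, arrays or experiments left out, only the groups compared, and the mean of all probe sets; other floors and other HOXB1 probe sets were added after seeing the data.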

Additional observations from a re-analysis of the deposited data

Results flagged for a closer look

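HOXA10-AS, the annotated antisense RNA whose span overlaps HOXA10 and HOXA9, belongs to none of the comparisons above and gave a clear signal on every array. Its 2 probe sets had mean signals of 1486.5 and 1140.5 and were above the floor of the control probe sets on 12 of 12 arrays. Neither was called by limma, with adjusted p values of the F test of 0.67 and 0.74. Which transcript of the overlapping genes the probes read was not tested.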

How the results depend on the processing

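Of the counts of genes called, those between the mesenchymes and for the difference of the left-right differences remained at 0 under all alternatives run. With array weights, 1 gene was called between the layers (HOXC8). The F test called 0 genes with no filter, with no intensity trend, with both right mesenchyme 3 and right epithelium 3 left out, and with the mean of all probe sets of a gene. Leaving out 1 array or experiment gave 0 to 1 genes between the epithelia, 0 to 1 between the layers, 0 to 2 between the sides over both layers and 0 to 2 by the F test (HOXB1, HOXA9, MEIS2 and HOXC8). The sign turned for HOXB6 between the epithelia (-0.059) and for HOXA9 between the layers (0.072) with the mean of all probe sets. The 25 genes above the floor, and 0 of groups 11 to 13, were the same counts with the floor at the 90th percentile or at the highest of the controls.

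Without the replicate block the F test called 0 genes, with an adjusted p of 0.19 for HOXB1; left against right over both layers it gave 0.24, with the same difference of -0.73.

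Over all probe sets the number called ranged over the alternatives from 148 to 763 between the mesenchymes (460 as reported), 199 to 581 between the epithelia (569), 418 to 1215 between the layers (1105), 482 to 1315 between the sides over both layers (1217), 0 to 15 for the difference of the left-right differences (6) and 666 to 1877 by the F test (1692). With 3 arrays per compartment, a change of 1 log2 unit stays within the interval of at least 1 of the 3 comparisons for every tested gene outside the 17 named above.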
